A study of Mus musculus with 9 samples.

Results

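miR-221-3p and miR-222-3p are a pair of mature miRNAs cut from neighboring hairpins on the X chromosome, and both can pair with the mRNA of Kit, the receptor for stem cell factor. They were taken by name from a small RNA sequencing (sRNA-seq) count table of 817 mature miRNAs, where they are listed as mmu-miR-221-3p and mmu-miR-222-3p, and all reads of these 2 members in all 9 libraries were analyzed. The members differed in how their 3′ tails changed with genotype. Reads of miR-221-3p that carried added Ts at the 3′ end fell from 4.67% ± 3.14 of its reads (SD, n = 5) in Tut4/7 CTL libraries to 0.231% ± 0.176 (SD, n = 4) in Tut4/7 cKO libraries. The corresponding shares of miR-222-3p were 5.39% ± 2.98 and 5.20% ± 1.34.

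The libraries came from preleukemic cells. These were c-Kit-enriched fetal liver cells of C57BL/6 mice transduced with retroviruses carrying Meis1 and Hoxa9 and serially replated, and all groups carried both oncogenes. In Tut4/7 cKO cells both floxed genes, Tut4 and Tut7, were deleted by Vav-iCre, which acts in blood-forming cells. The Tut4/7 CTL cells came from littermates with the floxed alleles and no iCre, and the labels call them WT. All cells were grown with SCF at 40 ng/mL, IL-6 at 20 ng/mL and IL-3 at 20 ng/mL, so the ligand of Kit was present in each culture. Each group held 5 (CTL) or 4 (cKO) libraries. The labels do not name the source animal of a library. The methods of the study state in general that replicates of its mouse cells came from different animals or embryos. Libraries of small RNAs hold no mRNA of the deleted genes, so the genotype of each was taken from its label.

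TUT4 and TUT7 are terminal uridylyl transferases, enzymes that add U residues to the 3′ end of RNAs. Such added bases appear as Ts in sequencing reads. A miRNA guides Argonaute to mRNAs mainly through its seed, bases 2 to 8, and mRNAs that pair with it are translated less or decay faster. miR-221 and miR-222 are known in blood-forming cells as repressors of Kit and of Cdkn1b, which encodes the cell cycle inhibitor p27.

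The mature sequences are shown because they hold the shared seed, in capitals, and the 3′ ends, which differ and past which tails are counted. The last line is the mature miR-222-3p of RefSeq (from GRCm38.p6), which is longer than the sequence in the deposited reads.
miR-221-3p: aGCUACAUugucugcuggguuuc
miR-222-3p: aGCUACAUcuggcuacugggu
miR-222-3p in RefSeq: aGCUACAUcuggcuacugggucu
The first 8 bases of the members were the same, and of 707 listed miRNAs with a RefSeq mature sequence these 2 alone had this seed. miR-221-3p ended in C after 3 Us, and miR-222-3p, as the authors' reference had it, ended in U after 3 Gs. Reads of miR-222-3p that ran on into the templated C or CU of the RefSeq sequence could not match that reference plus Ts without a mismatch. If read correctly, they are not among the reads counted here. Its level and its share of tailed reads are then those of molecules that ended at or before the templated U, with or without added Ts. A longer read with that C misread as T would be counted as tailed, and how often this occurred was not tested.

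In GRCm39, miR-221-3p matched the genome at 1 place, chrX:19012546-19012568 on the minus strand. miR-222-3p also matched at 1 place, chrX:19013142-19013162 on the same strand. They lie in the Mir221 and Mir222 hairpins, 95 and 79 bases long and 504 bases apart, within the annotated lncRNA gene Gm26652. Of 12 Gm26652 transcripts that span miR-221-3p, 1 has it in an exon and the others in an intron. All 11 that span miR-222-3p have it in an intron. The genomic bases after the mature ends were AGG and CTC, so the first added T was not templated for either member.

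Matches to the seed in the targets are shown to place the members beside Kit. ATGTAGC, the complement of bases 2 to 8, was searched on the sense strand of 3′ UTRs and is in capitals. In Kit it occurred at 2 places in an annotated 3′ UTR of 2199 bases, in the windows chr5:75815639-75815666 and chr5:75817170-75817197 on the plus strand (GRCm39). In Cdkn1b it occurred at 1 place, in the window chr6:134901381-134901408 on the plus strand.
Kit, upstream match: tgatgggagatatATGTAGCaagactag
Kit, downstream match: tgtaaatattgaaATGTAGCaataatgt
Cdkn1b: ctaaaagcattggATGTAGCattgcgca
Each match was followed by A. The motif occurred in 12.3% of 20955 3′ UTRs, in 16.1% of the 1672 within 10% of the length of that of Kit and in 22.5% of the 1575 near the length of that of Cdkn1b. A match is a description of the letters, and Kit mRNA was not measured in these libraries.

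miRNA reads per library ranged from 209702 to 316620 in CTL and from 175462 to 479342 in cKO. All 5 blood-cell miRNAs on a fixed marker list were listed, with summed levels of 40210 to 76666 RPM (reads scaled to the miRNA total of the library) in CTL and 44699 to 79692 in cKO. Most of that sum was miR-181a-5p, at 32110 to 62565 in CTL and 39976 to 67856 in cKO. miR-223-3p was at 2757 to 12222 and 972 to 10512, and miR-155-5p at 805 to 5271 and 1288 to 7283. The other members were low, with miR-142a-3p at 65.8 to 165 and 33.4 to 131, and miR-142a-5p at most 15.1 in any library. The erythroid miR-451a was at most 5.70 RPM in any library. The hepatocyte miR-122-5p was at 529 to 1346 in CTL and 581 to 1425 in cKO, and 4 epithelial miRNAs summed to 762 to 1538 and 313 to 1619. Endothelial miR-126a-3p was at 124 to 202 and 68.4 to 227, and muscle and neuron markers summed to at most 6.93 RPM in any library. All these ranges overlapped between genotypes. CTL replicate 2 stood apart in the tails themselves. The median uridylated share over 143 tested miRNAs, both members included, was 1.19% there. It was 5.88% to 7.37% in the other CTL libraries and 0.189% to 0.248% in cKO. Over all miRNA reads the uridylated share of CTL replicate 2 was 10.8%, against 14.4% to 24.8% in the other CTL libraries and 7.55% to 19.3% in cKO. Much of that all-read share came from miR-92a-3p, whose mean uridylated shares were 96.5% in CTL and 96.0% in cKO. It had 131423 uridylated reads in CTL and 109996 in cKO. Tested miRNAs with at least 50 uridylated reads in the group had 226342 and 155383 together. Uridylated shares are also given without CTL replicate 2, an omission chosen from tail values that raises the CTL shares of both members.

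miR-221-3p had reads with added Ts in every library, with up to 3 Ts in CTL and 1 T in cKO. A uridylated read is one that ends past the mature 3′ end, and the bases past that end were Ts in all such reads. In CTL replicates 1 to 5 the uridylated reads were 151 of 4204, 16 of 2982, 286 of 6377, 249 of 4466 and 436 of 4752, or 3.59%, 0.537%, 4.48%, 5.58% and 9.18%. In cKO replicates 1 to 4 they were 8 of 1677, 14 of 8227, 20 of 9361 and 7 of 10991, or 0.477%, 0.170%, 0.214% and 0.0637%. Every cKO library was below every CTL library, but CTL replicate 2 was close to cKO replicate 1, and their 95% Wilson intervals, 0.331% to 0.870% and 0.242% to 0.939%, overlapped. The share did not overlap in this direction for 34.3% of the 143 tested miRNAs.

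The fall in miR-221-3p was a log2 fold change of the odds of a uridylated read of −4.40 ± 0.79 (SE, 95% interval −6.08 to −2.73, adjusted p = 0.000211, edgeR quasi-likelihood test, Benjamini-Hochberg over 143 miRNAs). It was one of many, since uridylation was lower in cKO for 85 of the 143 miRNAs tested (59.4%) and higher for 0 by edgeR, where 87 had an unadjusted p under 0.05 in either direction. Entry to this test required uridylated reads in CTL libraries, which favors miRNAs that fall. The median log2 fold change over all tested was −2.83, and 30 of the 143, itself included, fell as far as miR-221-3p or further. Without CTL replicate 2 its CTL share was 5.71% ± 2.45 (SD, n = 4) and the log2 fold change was −5.00.

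miR-222-3p had far fewer reads, and its mean tailed share was above 5% in both genotypes. Uridylated reads in CTL replicates 1 to 5 were 9 of 187, 1 of 212, 12 of 185, 14 of 187 and 15 of 195, or 4.81%, 0.472%, 6.49%, 7.49% and 7.69%. In cKO replicates 1 to 4 they were 7 of 153, 24 of 348, 24 of 634 and 27 of 486, or 4.58%, 6.90%, 3.79% and 5.56%. The 4 cKO values lay within the range of the CTL values, and CTL replicate 2 was the lowest of all 9.

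No change of miR-222-3p was detected (log2 fold change 0.03 ± 0.52, SE, 95% interval −1.05 to 1.12, adjusted p = 0.957, edgeR quasi-likelihood test). A quasi-binomial model gave −0.07 with an interval of −1.11 to 0.98. Both intervals still allow a change of about 1 on the log2 scale in either direction, and neither reaches the median of the tested miRNAs. Without CTL replicate 2 the CTL share was 6.62% ± 1.31 (SD, n = 4) and the log2 fold change −0.39, with an adjusted p of 0.369.

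**Figure D1:**
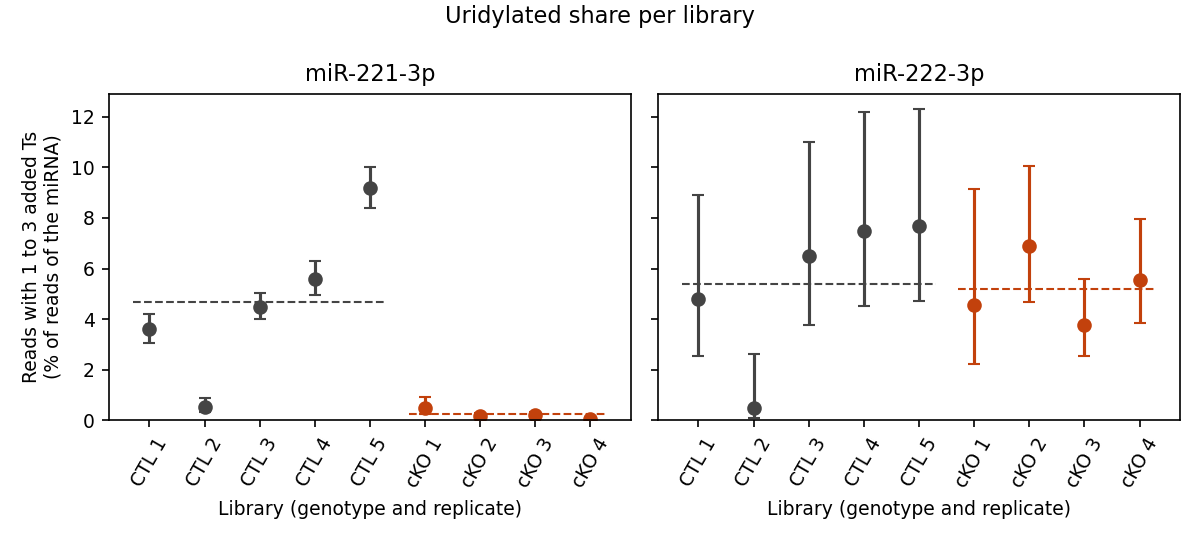
Reads with 1 to 3 added Ts as a percentage of the reads of miR-221-3p (left) and miR-222-3p (right) in each library. Points are libraries, bars are 95% Wilson intervals for counting error and dashed lines are group means; the cKO libraries of miR-221-3p lie at or below 0.477%, and those of miR-222-3p between 3.79% and 6.90%.

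Because both members were read in the same libraries, they were also compared within each. In cKO the share of miR-222-3p was higher than that of miR-221-3p in 4 of 4 libraries, by 4.97 ± 1.42 percentage points (SD), with p = 0.125 in an exact two-sided sign-flip test, the smallest 4 libraries can give. In CTL it was higher in 3 of 5 libraries, by 0.717 ± 1.48 points (exact p = 0.375). That difference was 0.396 points without CTL replicate 3, 0.419 without CTL replicate 4 and 1.27 without CTL replicate 5. Over all 9 libraries the difference was 2.61 ± 2.62 points, higher in 7 of 9 (exact p = 0.0234, adjusted p = 0.0469 over 4 comparisons). This missed the threshold when any 1 library was left out (adjusted p of 0.0571 to 0.0938) and among reads that reach the mature end (1.84 points, adjusted p = 0.250).

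The log2 odds ratio of uridylation, miR-222-3p against miR-221-3p with 0.5 added to each count, ranged from −0.24 to 0.62 in CTL libraries and from 3.33 to 6.45 in cKO libraries. The means were 0.35 ± 0.34 (SD, n = 5) and 4.85 ± 1.37 (SD, n = 4). They differed by 4.50, with p = 0.0159 in an exact two-sided permutation test, the smallest that 5 against 4 libraries allow, and an adjusted p of 0.0469. Each omission of a library left a difference of 3.97 to 5.01 but raised the adjusted p to between 0.0571 and 0.0938. With fewer libraries the smallest possible p is larger, and this comparison could not pass after adjustment. Whether the call depends on a single library thus cannot be told. Restricting to reads that reach the mature end also raised the adjusted p, to 0.0635, with a difference of 4.46.

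The reads that carry the difference are shown, with the added T in capitals. The counts are sums of exactly these sequences over the 9 libraries.
miR-221-3p, mature end: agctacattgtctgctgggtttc
miR-221-3p, 1 T: agctacattgtctgctgggtttcT
miR-221-3p, 2 Ts: agctacattgtctgctgggtttcTT
miR-222-3p, mature end: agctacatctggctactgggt
miR-222-3p, 1 T: agctacatctggctactgggtT
miR-222-3p, 2 Ts: agctacatctggctactgggtTT
For miR-221-3p these were 30032, 1139 and 39 reads, and a further 7 reads had 3 Ts. For miR-222-3p the mature end and 2 Ts had 2117 and 5 reads, 1 read had 3 Ts, and from any start position 49 CTL and 78 cKO reads had 1 T. A single T made up nearly all tails of both.

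Reads of miR-221-3p with 1 T were 3.45%, 0.469%, 4.36%, 5.22% and 8.88% of its reads in CTL replicates 1 to 5. In cKO, where no read had a longer tail, the 1 T share equaled the uridylated share. With 2 Ts the CTL libraries held 5, 1, 8, 11 and 14 reads and each cKO library held 0, so the groups did not overlap, as for 14.0% of the 143 tested miRNAs. Reads with 3 Ts were found in CTL replicates 1, 2 and 4 only, with 1, 1 and 5 reads. Pooled over libraries, 46 of 22781 CTL reads and 0 of 30256 cKO reads had 2 or 3 Ts. A count of 0 allows a cKO share of up to 0.00992% (3 counts over the group). With the CTL share taken as counted, the pooled share was thus at least 20.4-fold lower. That bound drops to 12.97-fold without cKO replicate 4. Without molecular identifiers, PCR copies of 1 molecule are counted more than once, so intervals and limits cover counting error only.

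In exact two-sided permutation tests, miR-221-3p had p = 0.0317 for the 1 T share and p = 0.0159 for the 2 T share. Without CTL replicate 2 the CTL means were 5.48% ± 2.38 and 0.196% ± 0.088 (SD, n = 4). Neither passed after adjustment over the family of 10 tests on both members (adjusted p = 0.159 for each). The smallest p that 5 against 4 libraries allow is 0.0159, so a lone test cannot pass in a family of this size. The 3 T share had an exact p of 0.238.

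For miR-222-3p the 1 T share was 4.81%, 0.472%, 6.49%, 6.95% and 7.18% in CTL replicates 1 to 5. It was 4.58%, 6.61%, 3.63% and 5.14% in cKO replicates 1 to 4 (exact p = 0.905). Tails of 2 Ts were seen in 1 read of CTL replicate 4 and in 1, 1 and 2 reads of cKO replicates 2, 3 and 4 (exact p = 0.492). The only 3 T read was in CTL replicate 5. Unlike miR-221-3p, miR-222-3p thus had reads with 2 Ts in 3 of 4 cKO libraries, on a pooled 4 of 1621 reads.

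Among tailed reads alone, 2 or 3 Ts were carried by 4.04% of those of miR-221-3p in CTL (46 of 1138, exact 95% interval 2.97% to 5.36%) and by 0 of 49 in cKO, which allows up to 7.25% by the same interval. For miR-222-3p the shares were 3.92% (2 of 51) and 4.88% (4 of 82, 1.34% to 12.02%). The medians of tested miRNAs with at least 50 tailed reads were 5.93% over 70 miRNAs in CTL and 1.21% over 40 in cKO. At this depth a difference in tail length between the members was not detectable.

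The other part of the 3′ end is how much of the templated sequence is present. Without added Ts, miR-221-3p was read mainly in 2 forms, the full mature sequence and one that lacked the final C. The full form was 46.8%, 43.8%, 68.6%, 53.7% and 62.7% of reads in CTL replicates 1 to 5 and 50.6%, 73.8%, 61.9% and 39.3% in cKO replicates 1 to 4. The form without the C was 44.5%, 47.8%, 24.3%, 36.4% and 25.1% in CTL and 43.5%, 22.7%, 32.3% and 51.3% in cKO. In CTL replicate 2 and cKO replicate 4 the shorter form was the more frequent one, so the balance of both forms varied within each genotype.

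Reads of miR-221-3p that stopped before the mature end made up 40.2% ± 12.8 in CTL (SD, n = 5) and 43.4% ± 14.8 in cKO (SD, n = 4; exact permutation p = 0.730). The mean end of reads without added T was −0.485 ± 0.149 and −0.515 ± 0.177 bases from the mature end (exact p = 0.794). Since the mature sequence has 3 Us before its C, a read that ends in them has the same letters whether those bases are templated or were added to a shorter molecule. The uridylated share therefore counts only tails after the complete mature sequence.

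The counted reads of miR-222-3p were more uniform. Its reference stops before the RefSeq end, and longer templated reads are not counted. Whether its 3′ ends as a whole are more uniform than those of miR-221-3p thus cannot be told. The full reference sequence was 80.7%, 86.8%, 78.4%, 84.0% and 78.5% of counted reads in CTL and 77.1%, 82.2%, 82.3% and 83.7% in cKO. Reads that stopped short made up 12.9% ± 2.61 in CTL and 13.4% ± 3.54 in cKO (exact p = 0.794), and the mean end was −0.166 ± 0.043 and −0.181 ± 0.055 bases (exact p = 0.651). Most short reads lacked only the final U of the reference, which cannot be told from an added one either.

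Among reads that reach the mature end, miR-221-3p was tailed more often than miR-222-3p in CTL libraries (by 1.15 percentage points on average, exact p = 0.250), the opposite order from that over all reads. In CTL, 12.9% of counted miR-222-3p reads stopped short of the reference end, against 40.2% for miR-221-3p. These end points are unlike, since the miR-222-3p reference stops before the RefSeq end and longer templated reads are not counted. Neither the short shares nor the tailed shares of the members therefore compare like ends. The order in cKO did not turn.

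**Figure D2:**
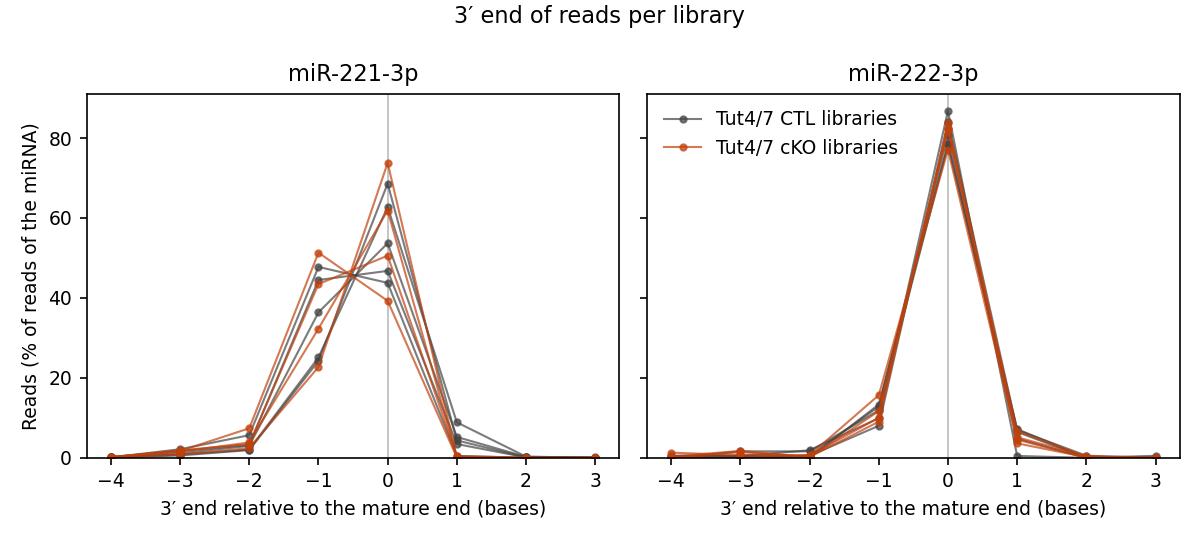
Share of the reads of miR-221-3p (left) and miR-222-3p (right) by the position of the 3′ end, in bases from the mature end (0), with added Ts at 1 to 3. Each line is a library. Lines of miR-221-3p have peaks at −1 and 0 that vary within both genotypes and a CTL shoulder at 1. Those of miR-222-3p have 1 peak at 0 and a shoulder at 1 in both genotypes. Its reference stops before the RefSeq end, so longer templated ends are not shown.

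miR-221-3p was among the more abundant miRNAs. In these bulk libraries, fewer cells of a type and less RNA per cell cannot be told apart. A miRNA is read from end to end, so levels in TMM-normalized CPM (counts scaled to the library total, with factors for composition) needed no scaling for length. The levels were 18827, 11262, 18805, 15624 and 17906 CPM in CTL replicates 1 to 5 and 11482, 22413, 21427 and 27716 CPM in cKO replicates 1 to 4. The groups overlapped, with 3 cKO libraries above all CTL libraries and cKO replicate 1 near the lowest of them. The means were 16485 ± 3198 CPM (SD, n = 5) and 20759 ± 6773 CPM (SD, n = 4). The log2 fold change was 0.33 ± 0.27 (SE, 95% interval −0.27 to 0.94, adjusted p = 0.638, edgeR quasi-likelihood test). It was 0.06 without cKO replicate 4, 0.11 without CTL replicate 2, 0.19 without CTL replicate 4 and 0.53 without cKO replicate 1.

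miR-222-3p was read at 837, 801, 546, 654 and 735 CPM in CTL and at 1048, 948, 1451 and 1226 CPM in cKO. Every cKO library was above every CTL library, as for 3.41% of the 205 miRNAs tested. In RPM, without TMM factors, the groups overlapped. The means were 715 ± 117 CPM (SD, n = 5) and 1168 ± 220.9 CPM (SD, n = 4), and the log2 fold change was 0.71 ± 0.28 (SE, 95% interval 0.09 to 1.33). The unadjusted p was 0.0292 and the adjusted p 0.299 by edgeR, so the difference did not pass, whereas DESeq2 on the same counts gave 0.76 with an adjusted p of 0.0274. In the abundance test edgeR called 1 of 205 miRNAs (0.488%), which was neither member, and 31 had an unadjusted p under 0.05.

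Over all 9 libraries miR-221-3p had the mean level of rank 14, between miR-148a-3p at 21114 CPM and miR-24-3p at 17656 CPM. miR-222-3p had rank 68, between miR-122-5p at 966 CPM and miR-200c-3p at 905 CPM. The SDs of the neighbors within a genotype overlapped those of the members except for miR-200c-3p in CTL, which was at 1112 ± 222.1 CPM in CTL and 645 ± 420 CPM in cKO. The ratio of miR-221-3p reads to miR-222-3p reads was 14.1 to 34.5 in CTL libraries and 10.96 to 23.6 in cKO libraries. Rank and ratio hold for counted reads only, since templated reads of miR-222-3p past its shorter reference are left out.

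**Figure D3:**
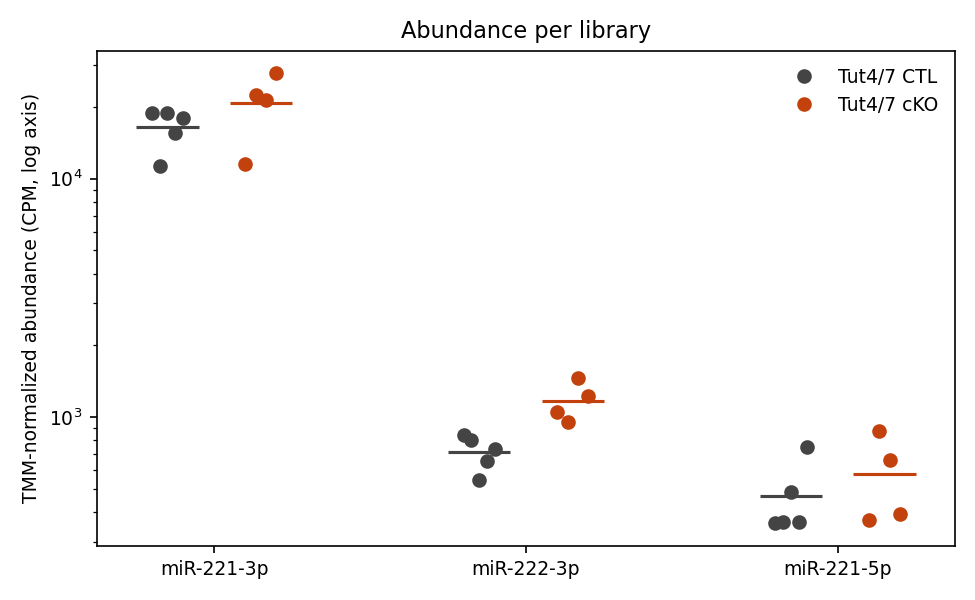
TMM-normalized abundance in CPM (log axis) of miR-221-3p, miR-222-3p and the partner arm miR-221-5p in each library. Points are libraries and lines are group means; the genotypes overlap for miR-221-3p and miR-221-5p and not for miR-222-3p, whose difference did not pass edgeR's adjusted threshold.

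The partner arms come from the other side of each hairpin, and each mature miRNA of a hairpin has its own seed and targets. The Mir221 hairpin carries both arms, shown in capitals in order from 5′ to 3′ (RefSeq, GRCm38.p6).
Mir221: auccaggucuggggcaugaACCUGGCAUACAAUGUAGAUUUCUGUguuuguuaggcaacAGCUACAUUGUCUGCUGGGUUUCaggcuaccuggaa
miR-221-5p had 80, 96, 165, 104 and 199 reads in CTL and 54, 322, 289 and 155 in cKO. Its uridylated reads were 6, 0, 6, 4 and 10 in CTL, or 4.002% ± 2.71 of its reads (SD, n = 5; 5.002% ± 1.77 without CTL replicate 2), and 0 in each cKO library. The log2 fold change of the odds was −5.86 (95% interval −8.49 to −3.23, adjusted p = 0.00120, edgeR quasi-likelihood test). Pooled, 26 of 644 CTL reads and 0 of 820 cKO reads were tailed. With the CTL share taken as counted, the pooled share was at least 11.04-fold lower against the limit of 3 counts over the cKO group. The bound drops to 6.70-fold without cKO replicate 2 and 7.15-fold without cKO replicate 3. Both arms of the Mir221 hairpin thus fell. miR-221-5p showed no detectable difference in abundance (log2 fold change 0.31, 95% interval −0.52 to 1.14, adjusted p = 0.742). miR-222-5p had 49 reads over all libraries, too few for either test.

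Of 6 other miRNAs described as regulators of Kit, 5 were in the table and 2 entered the tests. miR-193b-3p was read at a mean of 882 CPM over the 9 libraries, near miR-222-3p at 916 CPM, whereas miR-193a-3p, miR-494-3p and miR-218-5p had 1, 1 and 2 reads in all. Uridylation of miR-193b-3p fell (42 of 929 pooled reads in CTL and 2 of 1411 in cKO, mean CTL share 4.81%, or 6.01% without CTL replicate 2, log2 fold change −4.76, adjusted p = 0.000151, edgeR). For miR-34a-5p, a miRNA induced by p53, the mean shares were 79.4% and 57.6% and the change did not pass (log2 fold change −0.88, adjusted p = 0.325, edgeR). It had 5, 3, 4 and 70 reads in cKO replicates 1 to 4, so the cKO mean rests largely on very few reads. Both mature sequences are followed by a genomic T, so a T past their mature end can be templated. Neither passed in abundance, with log2 fold changes of 0.91 and −0.44. Uridylation thus passed for 1 of the 2 tested, downward, against 59.4% of all tested miRNAs.

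Among all miRNAs tested for uridylation, miR-222-3p was near the upper end. Of the 143, 5 had a log2 fold change at or above its own, itself included. The next genomic base was found for 119, and 66 of these, both members among them, are not followed by a T. Of the 66, 46 were called lower in cKO, the median log2 fold change was −3.45 and the median cKO share 0.242%. miR-222-3p had the highest log2 fold change of the 66, at 0.03 ± 0.52 (SE). miR-30a-5p was close to it at −0.03 ± 0.40, with mean shares of 24.7% in CTL and 24.2% in cKO, so the rank is within the error. Its cKO share was not the highest: 8 others of the 66 were above it, chosen here after their values were seen. They were miR-342-3p, miR-30a-5p, miR-425-3p, miR-21a-5p, miR-340-3p, miR-223-3p, miR-200b-3p and miR-146b-5p, with cKO shares of 5.76% for miR-146b-5p to 24.6% for miR-342-3p. Of these 8, miR-223-3p, the granulocyte miRNA, was called lower (31.7% to 10.4%, adjusted p = 0.0137, edgeR).

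miRNAs with either last base had members whose tails were called lower. Among the 66, those ending in C as miR-221-3p does numbered 14, of which 9 were called lower, with a median cKO share of 0.0202%. Those ending in T as miR-222-3p does in the deposited files numbered 22, of which 16 were called lower, with a median cKO share of 0.274%.

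**Figure D4:**
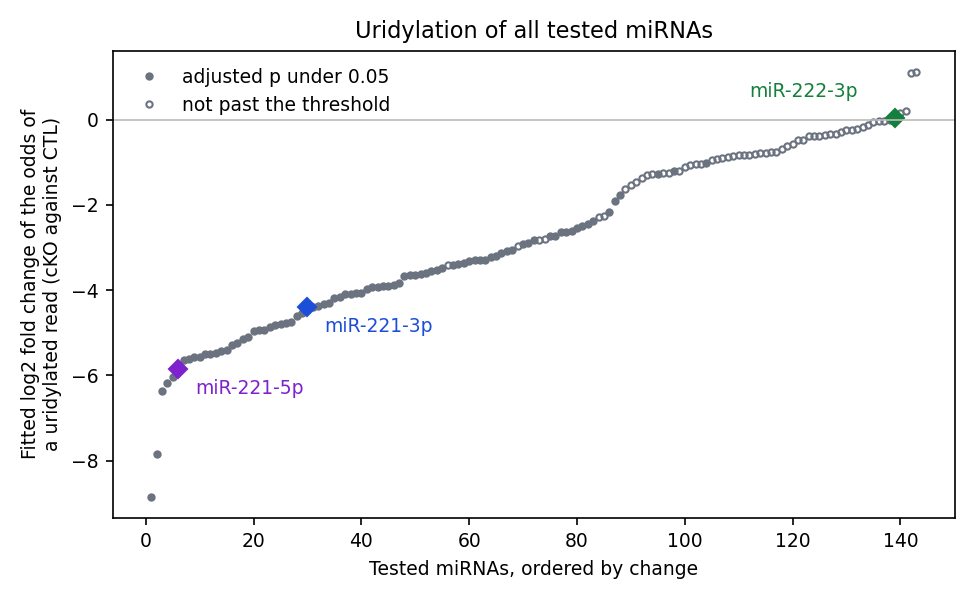
Fitted log2 fold change of the odds of a uridylated read, cKO against CTL, for the 143 tested miRNAs in rank order. Filled circles passed an adjusted p of 0.05 and open circles did not; the diamonds mark miR-221-5p at the left, miR-221-3p at −4.40 and miR-222-3p at 0.03, near the right end.

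The libraries differ in depth and genotype, which act on all miRNAs read in them, so likeness is a description only. Over the 9 libraries the uridylation pattern of miR-221-3p was most like those of miR-27b-3p, miR-24-3p and miR-27a-3p. Pearson r was 0.99, 0.98 and 0.98 in the log2 odds. The comparison of log2 odds covered 75 other miRNAs, each read 50 times or more in all 9 libraries. miR-222-3p was number 68 of the 75 in likeness to miR-221-3p, with r of 0.28. The pattern of miR-222-3p was most like those of miR-139-5p, miR-92a-3p and miR-674-3p, with r of 0.71, 0.70 and 0.70. In log2 CPM, over the 204 other miRNAs of the abundance test, miR-221-3p was closest to miR-107-3p, miR-3473b and miR-872-3p (r of 0.84, 0.78 and 0.75), and miR-222-3p to miR-194-5p, miR-130b-3p and miR-21a-5p (r of 0.90, 0.84 and 0.82). The levels of the members had r of 0.32 with each other.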

How the data were processed

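sRNA-seq of 5 Tut4/7 CTL and 4 Tut4/7 cKO libraries was analyzed, with groups and replicate numbers taken from the labels. The authors sequenced a gel fraction of short RNAs, removed adapters with cutadapt 5.0 and aligned reads with Bowtie 1.3.1, without mismatches, to miRBase mature sequences extended by 3 Ts (the submitters' processing notes also name DESeq2 1.42.1). The miRBase release is not given in the sources used here. They deposited raw counts, without normalization, for each mature miRNA and for each read sequence. Table and read sequences gave 0 differences over 817 miRNAs, and the 36 distinct sequences of the members were listed for no other miRNA. Reads that match other references are not in these counts, and reads with a mismatch are lost.

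Abundance was tested with edgeR 4.0.16 (R 4.3.3, TMM, glmQLFit, glmQLFTest, genotype only) in 205 miRNAs (10 or more reads in 4 or more libraries). Uridylation was tested in edgeR on counts of uridylated and other reads, by the interaction of class and genotype with libraries as terms, in 143 miRNAs (10 or more reads in 5 or more libraries, and a uridylated read in 3 or more CTL libraries). Only rows of the members and fixed lists are given, adjusted by Benjamini-Hochberg over all tested. Shares and ends per library were compared by exact two-sided permutation tests in SciPy 1.17.1 (Python 3.11.15). Sequences were matched to GRCm39 with GENCODE annotation, and RefSeq mature sequences are of GRCm38.p6. On simulated counts, 48 of 50 changes of 2 on the log2 scale were recovered in the abundance test with 1 false call, and 30 of 50 changes of −3 in the uridylation test with 0 false calls.

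The members and lists were chosen with earlier results of these data known. The rule for names took the members, the partner arms, the Kit list, the neighbors in level and the 3 miRNAs most like each member. Alternatives comprised DESeq2 1.42.0, other size factors, filters and read classes, a quasi-binomial model, a replicate block and omission of each library. At the depth of the members, a 95% Wilson interval of the uridylated share was up to 1.64 percentage points wide for miR-221-3p and up to 7.66 for miR-222-3p. No batch is given in the labels.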

Additional observations from a re-analysis of the deposited data

Results flagged for a closer look

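In CTL libraries, 1 read of miR-222-3p with 2 Ts in replicate 4 (0.535% of its reads there) and 1 read with 3 Ts in replicate 5 (0.513%) stood far from the other CTL libraries, which held 0. Each value rests on a single read. In all, 30 sets of values were looked at and these 2 stood out. A set with a value in 1 library and 0 in the rest is always flagged. The usual chance rate of about 1 in 20 therefore does not apply to these 2.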

How the results depend on the processing

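The fall in uridylation of miR-221-3p passed under all 16 alternatives (log2 fold change −5.02 to −3.91, adjusted p at most 0.00343). That of miR-222-3p passed under none (−0.39 to 0.23), and its sign turned with reads from the mature 5′ end only (−0.0040), with a quasi-binomial model (−0.065) and in some omissions of a library (−0.39 to 0.23). Abundance of miR-221-3p passed under none of 14 alternatives (0.06 to 0.53). miR-222-3p passed with DESeq2 only (0.76), which called 11 of 205 miRNAs where edgeR called 1. Restricted to reads that reach the mature end, the members differed by 1.84 points over all libraries (adjusted p = 0.250), by −1.15 in CTL, and by 4.46 in the log2 odds ratio between genotypes, and the comparisons over all libraries and between genotypes no longer passed. They also missed the threshold when any 1 library was left out (2.09 to 3.12 points; 3.97 to 5.01), where p between genotypes was 0.0286 or 0.0357. With fewer libraries the smallest possible p rises, so the comparison between genotypes could not pass there after adjustment. Differences without a call that turned sign when a library was left out were the 1 T share of miR-222-3p (−1.37 to 0.31 points), the short reads of miR-221-3p (−2.57 to 8.96) and miR-222-3p (−1.11 to 1.42), and the mean ends of miR-221-3p (−0.099 to 0.040 bases) and miR-222-3p (−0.031 to 0.0090). For these the cause was not tested.

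Whether replicate numbers pair the samples is not known. Same-numbered deviations correlated at −0.12, −0.27, 0.36 and 0.15. The closest cKO library had the same number for CTL replicates 3 and 4 but not for 1 and 2. With the replicate number as a block (replicates 1 to 4), uridylation changed by −3.91 for miR-221-3p (adjusted p = 1.29e-08) and 0.23 for miR-222-3p, with 73 of 143 miRNAs called, and 0 were called in abundance. The mean end of miR-221-3p turned to 0.0026 and the 1 T share of miR-222-3p to 0.31 points under the block. The counts of miR-222-3p, at most 212 reads in a CTL library, limit what can be said of its tails.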
